A study of Mus musculus with 8 samples.

Results

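The genes described here are 38 genes of autophagy and of the lysosome, taken by symbol from the 56077 genes and loci of the deposited liver count table, and all 38 were found there. They were measured by RNA-seq after depletion of ribosomal RNA in livers of 6-month-old C57BL/6 mice, lean and fed without restriction, which were killed in the morning in the fed state. The 4 heterozygous mice (H11, H12, H15 and H75) carried the label eIF2α flox/+, and the other 4 mice (W32, W33, W76 and W90) were labelled wild type. No recombinase is named for either group, and both groups are called wild-type in the growth protocol, so the state of the floxed allele rests on the genotype label and on the level of Eif2s1 mRNA. Nothing in the labels says whether the mice shared litters, so p-values set the genotype difference against the spread between these 8 livers.

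Autophagy encloses cytoplasm in a double membrane, the autophagosome, and delivers it to lysosomes for breakdown. The ULK1 kinase complex and a phosphatidylinositol 3-kinase complex start the membrane, conjugation enzymes attach small ubiquitin-like proteins of the LC3 and GABARAP families to it, receptors bring in cargo, and acid hydrolases digest the content once a lysosome has fused with it. In the liver this pathway supplies amino acids during fasting and turns over lipid droplets and damaged organelles. Phosphorylation of eIF2α, the subunit encoded by Eif2s1, slows general translation while favouring translation of the transcription factor ATF4, and TFEB and TFE3 are transcription factors that activate lysosomal genes.

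Levels are CPM (counts scaled to a common library size) on TMM-scaled library totals, and fold changes are log2 ratios of heterozygous over wild type, tested with edgeR's quasi-likelihood test and Benjamini-Hochberg adjustment over 14261 genes. Eif2s1 had 20.5, 22.3, 20.8 and 25.1 CPM in H11, H12, H15 and H75, against 28.4, 28.8, 32.8 and 30.1 CPM in W32, W33, W76 and W90. Heterozygous livers had on average 73.8% of the wild-type level, and no heterozygous library overlapped a wild-type one, with a log2 fold change of -0.44 (SE 0.095, edgeR adjusted p = 0.315; DESeq2 adjusted p = 0.0156). Deposited counts summed to 22178028 to 28564400 in heterozygous and 25626387 to 27799116 in wild-type libraries. Across the liver no gene passed an adjusted p of 0.05 with edgeR (0% of 14261), 9.34% had an unadjusted p under 0.05 (4.9% higher and 4.44% lower in heterozygous livers), and DESeq2 called 1.16% of 13146. Each library was also left out in turn. This gave 0 to 2 calls over all genes for 7 of the libraries and 252 (1.74% of 14505 genes) without H15.

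Of the 38 genes, 37 were abundant enough to be tested and none passed an adjusted p of 0.05 with edgeR, DESeq2 or limma-voom (edgeR adjusted p 0.390 to 0.992). In edgeR 4 of the 37 had an unadjusted p under 0.05, a share close to the 9.34% of all tested genes. They were Map1lc3b, Gabarapl1 and Tfe3, with higher means in heterozygous livers, and Lipa, with a lower one. DESeq2 gave 4 and limma-voom 3 genes at an unadjusted p under 0.05. The median log2 fold change of the 37 genes was 0.12, against 0.0051 over all tested genes, whose interquartile range ran from -0.15 to 0.15. Means were higher in heterozygous livers for 27 of the 37 genes, against 51.1% of all tested genes. Library totals in place of TMM factors moved the median of all genes by -0.085, to -0.079. With them the means of 21 of the 37 were higher, against 34.4% of all tested genes, and the median of the 37 was 0.0275. The role groups below are also given with that scaling, to be read beside these values for all genes. Npc1l1, an intestinal cholesterol transporter, had 1 count in each of H12, H15, W76 and W90 and 0 in the other libraries, too few to test.

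**Figure D1:**
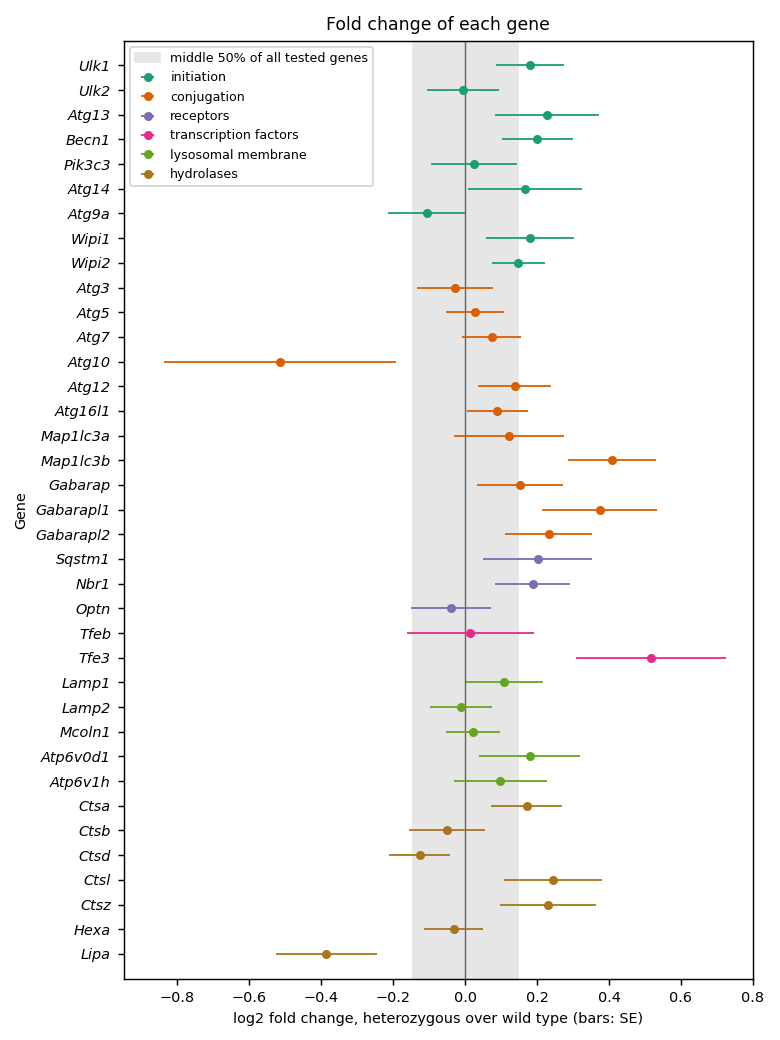
Log2 fold change of heterozygous over wild type for the 37 tested genes, in groups by role, with bars of 1 SE and n = 4 livers per genotype. The grey band is the interquartile range of all tested genes, from -0.15 to 0.15, and Tfe3 (0.52), Map1lc3b (0.41), Gabarapl1 (0.37), Lipa (-0.39) and Atg10 (-0.51) stand farthest from 0.

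The initiation genes had slightly higher means in heterozygous livers, in 7 of 9 genes (6 with library totals as the scaling) with a median log2 fold change of 0.17 (0.087 with that scaling), and none had an unadjusted p under 0.05. Wipi2 encodes a reader of phosphatidylinositol 3-phosphate that brings the conjugation machinery to the forming membrane. It (ENSMUSG00000029578) lies at chr5:142627698-142670588 of GRCm38, and it had 62.7, 69.5, 64.9 and 62.0 CPM in H11, H12, H15 and H75, against 58.0, 58.1, 59.5 and 58.4 CPM in W32, W33, W76 and W90. The lowest heterozygous value exceeded the highest wild-type one, by a small margin. Its log2 fold change of 0.15 (SE 0.073) did not pass over all genes (edgeR adjusted p = 0.573). Wipi2 was the 1 gene of the 37 whose groups did not overlap, where 4.38% of all tested genes did not overlap. With library totals as the scaling the groups overlapped for Wipi2, and its log2 fold change was 0.061.

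Becn1 encodes Beclin 1, the scaffold of the phosphatidylinositol 3-kinase complex, and had 53.0, 62.3, 47.2 and 58.0 CPM in H11, H12, H15 and H75, against 45.4, 47.2, 47.7 and 51.6 CPM in W32, W33, W76 and W90. H11, H12 and H75 were above every wild-type library, while H15 lay within the wild-type range. The log2 fold change of 0.20 (SE 0.099) had an edgeR adjusted p of 0.573. Atg13, a regulatory subunit of the ULK1 complex, had 38.2 CPM in H15, below every wild-type liver, 46.6 CPM in H11, within the wild-type range, and 57.5 and 60.1 CPM in H12 and H75, above it, against 39.4 to 47.4 CPM in wild-type livers. It had a log2 fold change of 0.23 (SE 0.14). Ulk1, the kinase that starts the process, averaged 83.6 ± 4.09 CPM in heterozygous and 73.8 ± 7.90 CPM in wild-type livers (SD, n = 4 each), with a log2 fold change of 0.18 (SE 0.094).

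The kinase Ulk2, a relative of Ulk1, differed by a log2 fold change of -0.0069 (SE 0.10), and Pik3c3, the catalytic subunit of the phosphatidylinositol 3-kinase complex, of 0.024 (SE 0.12). Atg14, which directs that complex to autophagosome formation, had 0.17 (SE 0.16). Its value rested on H11, which had 26.7 CPM where the other 7 livers had 15.9 to 19.96 CPM, and without H11 it was -0.0059. Atg9a, a membrane scramblase that supplies lipid to the growing membrane, had -0.11, and Wipi1, a relative of Wipi2, had 0.18.

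Of the conjugation genes, Map1lc3b and Gabarapl1 had the lowest p-values. Among 11 genes, the mean was higher in heterozygous livers for 9 (6 with library totals as the scaling), and the median log2 fold change was 0.12 (0.0275 with that scaling). Of the 11 genes 2, both higher, had an unadjusted p under 0.05, where 9.34% of all tested genes had one (4.9% higher). Map1lc3b encodes LC3B, which is linked to lipid in the autophagosome membrane and binds cargo receptors. It had 120.2, 112, 90.1 and 133 CPM in H11, H12, H15 and H75, against 82.1, 94.9, 79.3 and 87.1 CPM in W32, W33, W76 and W90. H11, H12 and H75 exceeded all wild-type livers, and H15 was below W33. The means were 114 ± 18.1 CPM in heterozygous and 85.9 ± 6.87 CPM in wild-type livers (SD, n = 4 each), and the log2 fold change of 0.41 (SE 0.12) had the smallest p of the 37 genes (unadjusted p = 0.00772, edgeR adjusted p = 0.390). With 1 library left out the log2 fold change ran from 0.32 to 0.51. The edgeR adjusted p was 0.0408 without H15, the heterozygous liver with the lowest level, and 0.463 to 0.755 without any of the other 7. Map1lc3b (ENSMUSG00000031812) lies at chr8:121590361-121598760 of GRCm38, where its exons overlap those of Zcchc14 on the other strand, and since it is not given whether counting used strand, reads of the pair cannot be told apart.

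Gabarapl1, a GABARAP family member, had 283, 315, 244 and 378 CPM in H11, H12, H15 and H75, against 235, 284, 186 and 239 CPM in W32, W33, W76 and W90. H12 and H75 were above every wild-type library, H11 and W33 were level, and H15 lay inside the wild-type range. Its log2 fold change of 0.37 (SE 0.16) had an edgeR adjusted p of 0.509. An exon of 1700101I11Rik overlaps the gene (ENSMUSG00000030161, chr6:129533160-129542346 of GRCm38) on the other strand. Gabarapl2, its close relative, had 0.23 (SE 0.12), with 44.7 CPM in H15 and 51.3 to 62.8 CPM in its 3 group mates, against 42.8 to 50.8 CPM in wild-type livers. Gabarap itself had 0.15 and Map1lc3a 0.12, of which the second turned to -0.024 without H12.

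The conjugation machinery other than Atg10 differed by small amounts. Atg7, the activating enzyme of both conjugation reactions, averaged 36.6 ± 2.23 CPM in heterozygous and 34.7 ± 1.94 CPM in wild-type livers (SD, n = 4 each), and Atg3, which passes LC3 to its lipid, averaged 65.0 ± 7.73 CPM in heterozygous and 66.3 ± 5.39 CPM in wild-type livers (SD, n = 4 each). Atg5, Atg12 and Atg16l1, whose products form the complex that directs LC3 to the membrane, had log2 fold changes of 0.027, 0.14 and 0.089. Atg10, which joins ATG12 to ATG5, had the lowest levels of the 37 genes per base of transcript. It ranged from 1.10 to 3.802 CPM in heterozygous and from 2.83 to 4.36 CPM in wild-type livers, and its log2 fold change of -0.51 came with an SE of 0.32 (edgeR adjusted p = 0.657), and was -0.27 without H15 and -0.78 without H75.

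**Figure D2:**
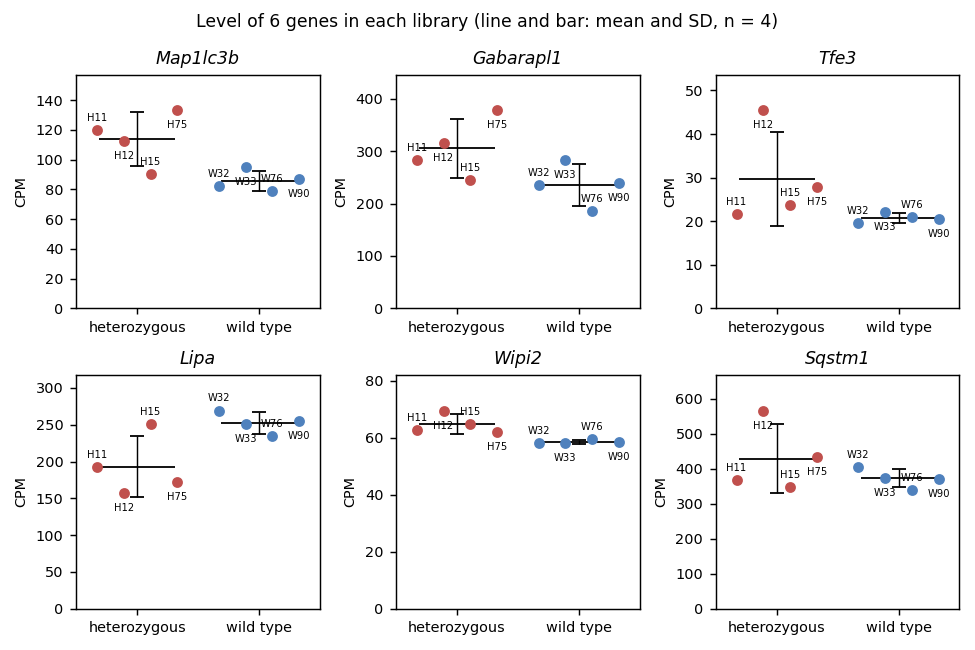
Level in CPM of 6 genes in each of 4 heterozygous (red) and 4 wild-type (blue) livers, with the group mean as a line and the SD as a bar. Heterozygous libraries lie above all wild-type ones for Wipi2, H15 falls in the wild-type range for Map1lc3b, Gabarapl1 and Lipa, and H12 sets the upper end for Tfe3 and Sqstm1.

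No cargo receptor had an unadjusted p under 0.05, and 2 of the 3 had higher means in heterozygous livers (2 with library totals as the scaling). Their median log2 fold change was 0.19 (0.097 with that scaling). Sqstm1 encodes p62, which binds ubiquitin and LC3 and is itself degraded with the cargo, and had 368, 567, 349 and 434 CPM in H11, H12, H15 and H75, against 406, 375, 341 and 372 CPM in W32, W33, W76 and W90. H12 and, less so, H75 were above the wild-type livers, while H11 and H15 were within their range. The log2 fold change of 0.20 (SE 0.15) had an edgeR adjusted p of 0.705 and was 0.039 without H12. Exons of Mrnip overlap Sqstm1 on the other strand.

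Nbr1 encodes a receptor with a domain structure like that of p62, and had 223, 231, 181 and 225 CPM in H11, H12, H15 and H75, against 182, 196, 205 and 171 CPM in W32, W33, W76 and W90. H11, H12 and H75 were above all wild-type libraries and H15 was not. Its log2 fold change of 0.19 (SE 0.10) had an edgeR adjusted p of 0.616. Optn, a receptor for ubiquitin-tagged bacteria and mitochondria, had a log2 fold change of -0.040 (SE 0.11).

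Both transcription factors were at low levels. The mean was higher in heterozygous livers for 2 of 2 (1 with library totals as the scaling), with a median log2 fold change of 0.27 (0.17 with that scaling). Tfe3 (ENSMUSG00000000134, chrX:7762560-7775202 of GRCm38) had 21.6, 45.5, 23.8 and 27.9 CPM in H11, H12, H15 and H75, against 19.6, 22.2, 20.9 and 20.5 CPM in W32, W33, W76 and W90. H12 was far above the rest, H15 and H75 were above the wild-type livers by less, and H11 was within their range. The log2 fold change of 0.52 (SE 0.21) was the largest positive value of the 37 genes, did not pass over all genes (edgeR adjusted p = 0.493) and was 0.23 without H12. Tfeb had 6.51, 4.66, 6.20 and 5.25 CPM in H11, H12, H15 and H75, against 4.22, 6.36, 5.43 and 6.39 CPM in W32, W33, W76 and W90. The groups overlapped throughout, with a log2 fold change of 0.014 (SE 0.18) that was -0.059 with library totals as the scaling.

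TFEB and TFE3 bind the palindrome TCACGTGA, which holds the E-box core CACGTG and is part of an element found before many lysosomal genes. Promoter windows from 250 bases before to 50 bases after the transcript start were available from RefSeq (GRCm38.p6) for 31 of the 38 genes, and not for Atg12, Atg16l1, Atp6v1h, Becn1, Ctsb, Map1lc3a and Pik3c3. CACGTG, which reads the same on both strands, stood in the windows of 10 of the 31 (32.3%), against 8.09% of 27025 genes. The longer TCACGTGA stood in 5 of the 31 (16.1%), against 1.12% of all genes, and each such match also counts as a CACGTG match. The 5 genes were Atg3, Atp6v0d1, Ctsa, Ctsd and Mcoln1. The other 5 genes with a core alone were Atg5, Atg7, Atg14, Ctsl and Lamp1.

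The stretches that follow show how these matches are spaced and flanked, 5′ to 3′ on the strand of the gene. Capitals mark each CACGTG, or the whole TCACGTGA where the core lies inside the palindrome. Lamp1 has 4 cores within 120 bases (chr8:13159041-13159160, plus strand), and Atg3 has a core followed by a palindrome (chr16:45158709-45158784, plus strand). The palindromes of Ctsa (chr2:164833749-164833772, plus strand), Ctsd (chr7:142387908-142387937, minus strand) and Mcoln1 (chr8:3500462-3500491, plus strand) differ in the bases around them. These genes hold further matches outside the stretches shown. In bases from the RefSeq start, Mcoln1 has a core at -71, Ctsd a core at -245 and Ctsa a palindrome at 5. The stretches shown for Ctsa, Ctsd and Mcoln1 lie before the RefSeq start but overlap an exon annotated in GENCODE. Those shown for Lamp1 and Atg3 overlap none.
Lamp1: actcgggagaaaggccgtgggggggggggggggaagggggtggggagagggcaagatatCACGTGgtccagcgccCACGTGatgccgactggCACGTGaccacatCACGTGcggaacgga
Atg3: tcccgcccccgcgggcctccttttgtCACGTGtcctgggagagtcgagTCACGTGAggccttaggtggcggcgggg
Ctsa: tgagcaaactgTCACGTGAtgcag
Ctsd: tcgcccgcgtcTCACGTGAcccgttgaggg
Mcoln1: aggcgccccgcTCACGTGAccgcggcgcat

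**Figure D3:**
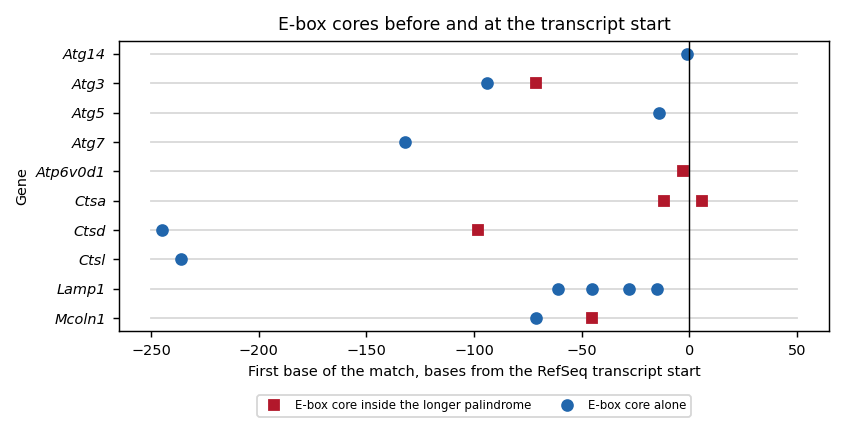
Position of the first base of each CACGTG match, in bases from the RefSeq transcript start, in the promoter windows of the 10 genes that hold one. Squares are cores inside TCACGTGA and circles are cores alone, and the 4 cores of Lamp1 lie within 120 bases before the start.

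Genes with and without these matches are set side by side as a description, and the difference between them was not tested. The 10 genes with a core had log2 fold changes from -0.13 to 0.24 with a median of 0.092. None had an unadjusted p under 0.05, where 9.34% of all tested genes had one, so for 10 genes a count of 0 is near that share. The 20 tested genes whose window held no core had a median of 0.17, and Map1lc3b, Gabarapl1, Tfe3 and Lipa were among them. For the palindrome the medians were 0.022 with it (5 genes) and 0.15 without it (25 genes). A form of the site bound by C/EBP and ATF family dimers, TTGCATCA (TGATGCAA on the other strand), was in none of the 31 windows and in 1.03% of all genes. The longer TGATGCAAT, which holds TGATGCAA, was in none of the 31 and in 0.222% of all genes. No match says only that these letters are not in the window.

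The lysosomal membrane genes had a median log2 fold change of 0.098 over 5 tested genes (0.0014 with library totals as the scaling), of which 4 were higher by mean (3 with that scaling) and none was at an unadjusted p under 0.05. Lamp1 encodes a major glycoprotein of the lysosomal membrane. It had 488, 559.7, 431 and 566 CPM in H11, H12, H15 and H75, against 473, 467, 507 and 449 CPM in W32, W33, W76 and W90. H12 and H75 were above all wild-type livers, H15 was below them all, and its log2 fold change of 0.11 (SE 0.11) had an edgeR adjusted p of 0.782 and was 0.055 without H75 and 0.18 without H15. Atp6v0d1, a subunit of the proton pump that acidifies the lysosome, had 47.9, 64.2, 40.4 and 59.5 CPM in H11, H12, H15 and H75, against 44.0, 44.6, 51.6 and 47.1 CPM in W32, W33, W76 and W90. H12, H75 and H15 stood to the wild-type livers as for Lamp1, and H11 lay within their range, and the log2 fold change of 0.18 (SE 0.14) had an edgeR adjusted p of 0.721 and was 0.074 without H12 and 0.29 without H15.

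Lamp2, the other major membrane glycoprotein, averaged 528 ± 28.4 CPM in heterozygous and 532 ± 27.5 CPM in wild-type livers (SD, n = 4 each), with a log2 fold change of -0.011. Mcoln1, the calcium channel of the lysosome that acts upstream of TFEB, averaged 28.2 ± 1.05 CPM in heterozygous and 27.8 ± 1.20 CPM in wild-type livers (SD, n = 4 each), with all 8 livers between 26.7 and 29.7 CPM. Atp6v1h, a cytosolic subunit of the proton pump, had a log2 fold change of 0.098 (SE 0.13), which was -0.018 without H75.

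The hydrolases had no common direction, with 3 higher and 4 lower means in heterozygous livers and a median log2 fold change of -0.032. With library totals as the scaling 3 means were higher and the median was -0.11. Lipa encodes lysosomal acid lipase, which splits cholesteryl esters and triglycerides. It (ENSMUSG00000024781) lies at chr19:34492318-34527474 of GRCm38 and had 192, 157, 251 and 172 CPM in H11, H12, H15 and H75, against 269, 251, 234 and 255 CPM in W32, W33, W76 and W90. H11, H12 and H75 were below every wild-type liver, and H15 was within their range. Its means were 193 ± 41.3 CPM in heterozygous and 252 ± 14.4 CPM in wild-type livers (SD, n = 4 each), and the log2 fold change was -0.39 (SE 0.14, unadjusted p = 0.0205, edgeR adjusted p = 0.465). With 1 library left out the log2 fold change ran from -0.54 to -0.30. The edgeR adjusted p was 0.0343 without H15, the 1 heterozygous liver in the wild-type range, and 0.485 to 0.849 without any of the other 7.

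Cathepsins are the main lysosomal proteases. Ctsl, a cysteine protease, had 447, 597, 451 and 570.1 CPM in H11, H12, H15 and H75, against 388, 513, 390.0 and 454 CPM in W32, W33, W76 and W90. H12 and H75 were above all wild-type livers, and the log2 fold change of 0.24 (SE 0.14) had an edgeR adjusted p of 0.623. Ctsd, an aspartic protease, had 259, 278, 295 and 271 CPM in H11, H12, H15 and H75, against 325, 294, 298 and 287 CPM in W32, W33, W76 and W90. H11, H12 and H75 were below every wild-type liver and H15 was within their range, and the log2 fold change of -0.13 (SE 0.085) had an edgeR adjusted p of 0.676. Ctsz, a carboxypeptidase, differed by a log2 fold change of 0.23 (SE 0.13) and Ctsb, a cysteine protease, of -0.050 (SE 0.11). Ctsa, a protective protein that keeps other lysosomal enzymes stable, had 0.17, and Hexa, a subunit of β-hexosaminidase, had -0.032.

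Across the 37 genes the heterozygous livers differed among themselves. As a median log2 ratio to the wild-type mean, H11 had 0.041, H12 had 0.15, H15 had -0.022 and H75 had 0.16, against -0.029 to 0.0080 in the 4 wild-type livers. Levels exceeded the wild-type mean for 27 genes in H11, for 24 in H12, for 14 in H15 and for 29 in H75. H12 and H75 each held the highest heterozygous value of 13 genes, and H15 held the lowest of 17. H15 lay inside the wild-type range for 26 of the 37 genes, H11 for 22, H75 for 14 and H12 for 9. The coefficient of variation between livers had a median of 11.9% in heterozygous and 8.0% in wild-type livers and was larger in heterozygous livers for 27 of the 37 genes. The spread and the counts of genes in this paragraph were not computed over all genes, so none of them is shown to be particular to these genes.

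**Figure D4:**
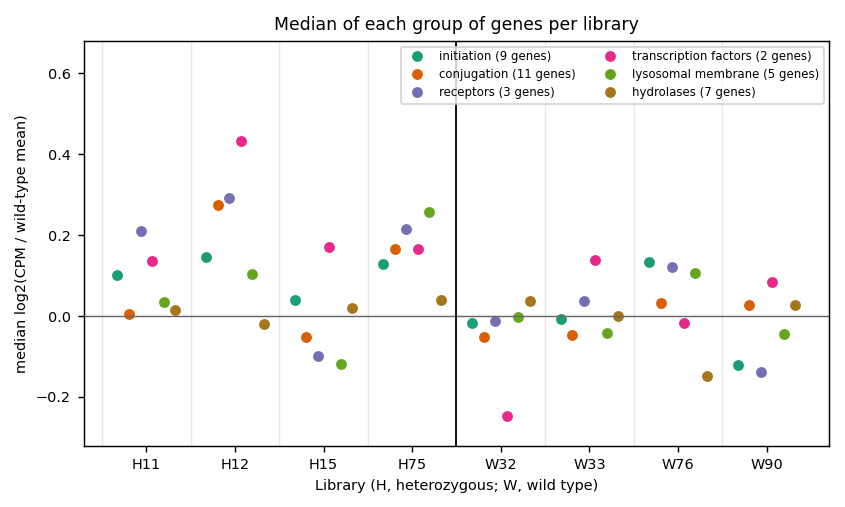
Median log2 ratio of CPM to the wild-type mean for each role group, in each heterozygous (H) and wild-type (W) liver. In H15 the receptors, lysosomal membrane and conjugation genes are below 0, while in H12 and H75 all groups except the hydrolases of H12 are above 0.

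**Figure D5:**
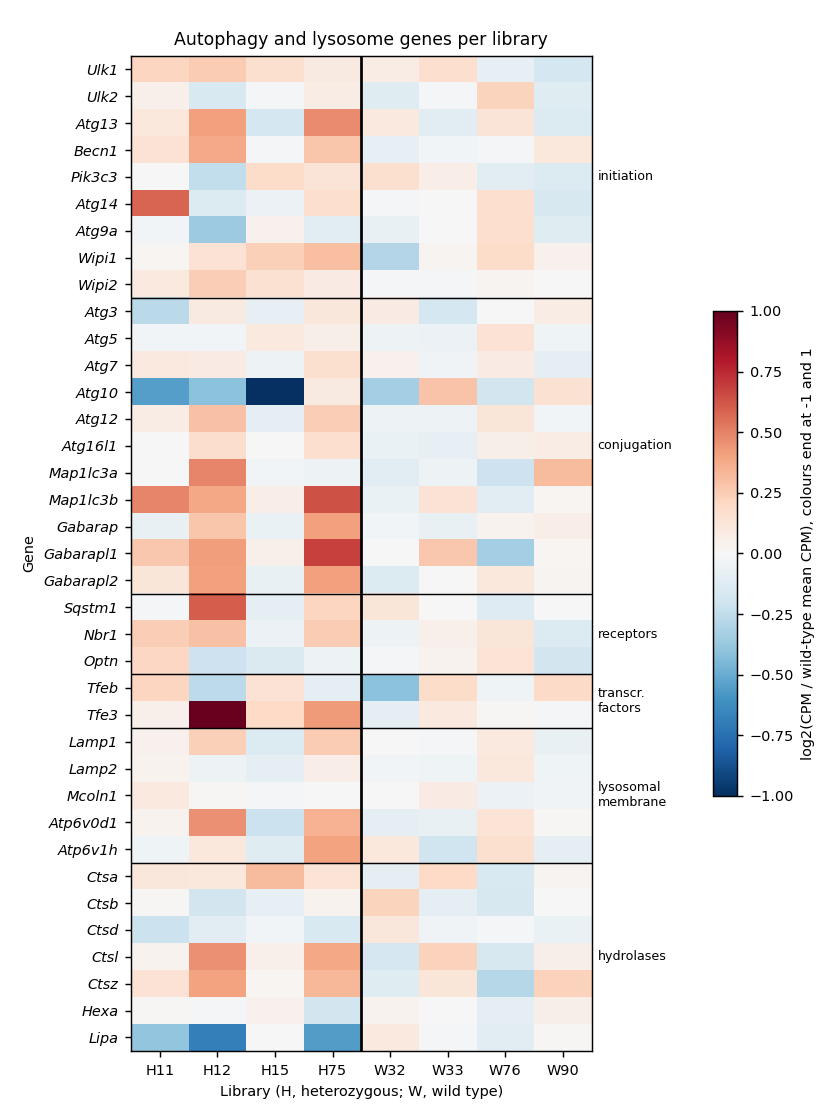
Log2 ratio of CPM to the wild-type mean of each tested gene, in each heterozygous (H) and wild-type (W) liver, with genes in order of role. Colours end at -1 and 1, which Atg10 in H15 and Tfe3 in H12 exceed, and H15 differs in many rows from H12 and H75.

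The counts of these genes depended on which liver was left out. H15 was the heterozygous liver most often in the wild-type range for these genes, so leaving it out selects on the values compared, and the counts without it describe that dependence and are no separate support for a difference. Without H15, 2 of the 37 genes had an edgeR adjusted p under 0.05 (Map1lc3b and Lipa, against 1.74% of all genes), 9 had an unadjusted p under 0.05 (against 16% of all genes) and 7 had groups that did not overlap (against 13.6% of all tested genes). Without any of the other 7 livers none of the 37 had an edgeR adjusted p under 0.05. At an unadjusted p under 0.05 there was 1 gene without H12 (against 5.9% of all genes) and 1 without W32 (6.2% of all genes). There were 2 without W76 (6.8%), 3 without H75 (6.8%), 3 without W90 (9.9%), 4 without H11 (10.1%) and 7 without W33 (7.3%). Without W33 the groups of 6 genes did not overlap. With a library left out, the share of all tested genes that did not overlap was computed only without H15. The count without W33 therefore has no share to be read against.

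Per kilobase of the longest coding transcript, Lamp1 had the highest level of these mRNAs, followed by Sqstm1, Gabarapl1, Lamp2 and Ctsd. Lamp1 had 229 CPM per kilobase in heterozygous and 213 in wild-type livers, and Sqstm1 had 161 in heterozygous and 139.7 in wild-type livers. Gabarapl1 had 168 in heterozygous and 129 in wild-type livers, Lamp2 had 146 in heterozygous and 148 in wild-type livers, and Ctsd had 129.6 in heterozygous and 141 in wild-type livers. Sqstm1, Gabarapl1 and Lamp2, at 150.2, 149 and 147 over all 8 livers, differed from each other by less than the spread of Sqstm1 between heterozygous livers. At the other end were Tfeb, with 2.41 in heterozygous and 2.39 in wild-type livers, and Atg10, with 1.59 in heterozygous and 2.26 in wild-type livers. Tfe3 had 8.76 in heterozygous and 6.13 in wild-type livers. The length chosen matters for this order. The authors' deposited table gives Gabarapl1 539 bases where its longest coding transcript has 1820. It gives Lamp2 2184 bases against 3604, and Sqstm1 2037 against 2673. By the deposited lengths Gabarapl1 came first, followed by Lamp2, Lamp1, Sqstm1 and Ctsd. The first 10 genes were the same set by either length, in a different order.

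Another 204 genes of the pathway were listed by role, and 199 were tested. None passed over all genes with edgeR, DESeq2 or limma-voom, 14 had an unadjusted p under 0.05 in edgeR (8 higher and 6 lower), 13 in DESeq2 and 13 in limma-voom, where 9.34% of all tested genes had one in edgeR. Means were higher in heterozygous livers for 118 of the 199, and the median log2 fold change was 0.044. The groups did not overlap for 7 of them (against 4.38% of all tested genes), Atg2a, Retreg3, Smpd1 and Nagpa being higher and Mtor, Tmem106b and Pla2g15 lower.

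Among further initiation genes Atg2a, a lipid transfer protein of the growing membrane, averaged 42.3 CPM in heterozygous and 35.9 CPM in wild-type livers, and Vmp1, an ER membrane protein needed for autophagosome formation, averaged 111 CPM in heterozygous and 85.7 CPM in wild-type livers. The LC3-processing proteases Atg4b and Atg4d had log2 fold changes of 0.11 and 0.14. Retreg1, a receptor for autophagy of the ER, averaged 63.9 CPM in heterozygous and 42.2 CPM in wild-type livers (log2 fold change 0.60, SE 0.22), the largest positive value of the 199. Stbd1, which binds glycogen, had -0.20. The fusion genes Stx17, a SNARE of the autophagosome, and Vps41, of the HOPS tethering complex, had -0.27 and -0.16.

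Upstream, Mtor, the nutrient-sensing kinase that holds autophagy back, averaged 35.5 CPM in heterozygous and 41.3 CPM in wild-type livers (log2 fold change -0.22, SE 0.089), and Prkaa2, a catalytic subunit of the energy sensor AMPK, averaged 39.9 CPM in heterozygous and 52.2 CPM in wild-type livers. The transcriptional coactivators Crtc2 and Ppargc1a had log2 fold changes of 0.30 and -0.63, the second being the largest negative value of the 199. In the lysosome, the membrane proteins Tmem106b and Glmp had -0.30 and 0.18, and the proton pump subunits Atp6v0c and Atp6v0a1 0.29 and 0.18. Pla2g15, a lysosomal phospholipase, had -0.34 and Smpd1, acid sphingomyelinase, 0.20. Gnptg and Nagpa, which make the mannose 6-phosphate tag of lysosomal enzymes, had 0.25 and 0.25. None of these passed over all genes (edgeR adjusted p at least 0.440).

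The hepatocyte markers summed to 92401 to 101153 CPM in heterozygous and 79827 to 106841 CPM in wild-type livers, and 2 of the 7, Serpina1a and Hnf4a, were higher at an unadjusted p under 0.05. Macrophages are rich in lysosomes. Their 11 markers summed to 323, 199.5, 146 and 265 CPM in H11, H12, H15 and H75, against 329, 176, 203 and 138 CPM in W32, W33, W76 and W90. All 11 had higher means in heterozygous livers, with a median log2 fold change of 0.18, and none had an unadjusted p under 0.05. H15 had the lowest sum of the heterozygous livers. Of 5 neutrophil markers 2 were tested, S100a8 and S100a9, both at an unadjusted p under 0.05, and the 5 summed to 0.382 CPM in H15 and to between 3.15 and 4.20 CPM in H11, H12 and H75, against 0.348 to 0.889 CPM in wild-type livers, while Ly6g was at 0 in all libraries except H15. Endothelial markers summed to 146 to 229 CPM in heterozygous and 131 to 185 CPM in wild-type livers. Stellate markers summed to 247, 151, 237 and 92.2 CPM in H11, H12, H15 and H75, against 169 to 223 CPM in wild-type livers. H12 and H75 were thus below every wild-type liver, while H11 and H15 were above them all. Cholangiocyte markers summed to 40.9 to 101 CPM in heterozygous and 34.1 to 87.1 CPM in wild-type livers. The cholangiocyte marker Sox9 was higher at an unadjusted p under 0.05 in edgeR (limma-voom unadjusted p = 0.110). It had 44.8 CPM in H12, 20.2 CPM in H75 and 8.24 to 8.84 CPM in H11 and H15, against 7.90 to 9.57 CPM in wild-type livers. The cholangiocyte markers Krt7, Krt19, Epcam and Spp1 were below the wild-type mean in H75, by log2 ratios of -2.7, -1.2, -0.79 and -0.61. In H12 their log2 ratios were 0.21, 0.073, 0.61 and 0.13. T and B cell markers were too low to test. Of 4 adipocyte markers Lep was at 0 in every library and 1 was tested, Cidec, which hepatocytes with lipid droplets also express and which was lower at an unadjusted p under 0.05 (3.83 CPM in heterozygous and 8.92 CPM in wild-type livers). The part of these cells in the results above was not tested. In bulk liver RNA, fewer cells of a type and less RNA per cell cannot be told apart.

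In the authors' deposited table of comparisons none of the 38 genes had an adjusted p under 0.05, the smallest being 0.138, and none was marked significant. In the authors' deposited table the same 4 genes, Gabarapl1, Lipa, Map1lc3b and Tfe3, had an unadjusted p under 0.05.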

How the data were processed

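Livers of 4 heterozygous and 4 wild-type mice were snap-frozen, and RNA was extracted with Trizol, treated with DNaseI, depleted of ribosomal RNA with Ribo-Zero and sequenced on an Illumina instrument, per the labels' protocols. The submitters' processing notes name the build mm10 and the tools Bowtie2 2.2.9, SAMtools 1.9, fastp 0.19.5 and GATK 3.8, with no roles. Of the counting program, its annotation and its use of strand, nothing is given in the sources used here. Raw estimated counts for each gene make up the deposited table of the authors, and 90.0% are whole, so reads shared between overlapping or similar genes may have been split. Fractional counts occur in 17 of the 38 genes, the exons of 14 overlap an exon on the other strand (Becn1, Atg14, Atg9a, Map1lc3b, Gabarapl1, Sqstm1, Optn, Lamp1, Atp6v1h, Ctsa, Ctsb, Ctsl, Ctsz and Hexa) and those of 3 an exon on the same strand (Atg9a, Ctsd and Ctsl), by GENCODE release 21 on GRCm38. The authors' deposited table of comparisons gives for each gene a p-value with its adjusted form, the fold as a ratio and its log2, per the file headers. It does not state a direction, and 99.5% of its signs over 13971 genes were those of the heterozygous over wild-type values computed here.

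Columns carry the group as their first letter and no replicate number. Estimated counts were rounded, filtered with filterByExpr (14261 genes left), scaled with TMM factors and tested in R 4.3.3 by edgeR 4.0.16 (quasi-likelihood F-test) with genotype as the only term. A standard error is the size of the log2 fold change divided by the square root of F. The 541 unannotated loci held 0.431 to 0.977% of a library's counts, and no library was a duplicate (chi-square per gene 20.2 to 163 within groups). Alternatives were other scaling factors, other filters, DESeq2 1.42.0, limma-voom (limma 3.58.1), other quasi-likelihood settings, an adjusted p under 0.1 and leaving out each library. The genes, lists and motifs were chosen with earlier results of these data known. Values of all 8 libraries are given for genes at an unadjusted p under 0.05, those whose groups do not overlap, the 2 of lowest p per role, and Sqstm1, Map1lc3b, Tfeb, Lamp1 and Ctsd, and of each further list the 2 genes of lowest p are named. Retreg3 falls outside this rule and was named after its values were seen. Promoters come from RefSeq on GRCm38.p6.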

Additional observations from a re-analysis of the deposited data

Results flagged for a closer look

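In 6 of 76 groups of 4 livers (38 genes in 2 genotypes), 1 liver lay far from the other 3 by Dixon's gap test, and chance gives such a gap in about 1 of 20 groups. Of these values 3 were in H12 or H15 and 3 in W76. In heterozygous livers, Map1lc3a had 37.7 CPM in H12 and 25.9 to 26.9 CPM in the others. Nbr1 had 223 to 231 CPM in H11, H12 and H75, and 181 CPM in H15. Ctsa had 82.8 to 84.6 CPM in H11, H12 and H75, and 96.0 CPM in H15. In wild-type livers, Atg5 had 38.6 CPM in W76 and 33.6 to 33.9 CPM in the others, Atg12 had 31.1 CPM in W76 and 27.6 to 28.0 CPM in the others, and Lamp2 had 573 CPM in W76 and 515 to 522 CPM in the others.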

How the results depend on the processing

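Over 17 alternative settings for each of 37 genes, 599 of 629 log2 fold changes kept their direction and their side of the threshold, 28 changed sign and 2 passed the threshold (Map1lc3b and Lipa, without H15). For 22 genes no alternative changed the sign. Library totals alone lower the median of all genes, to -0.079. With them the log2 fold changes were -0.058 for Pik3c3, -0.056 for Atg5, -0.015 for Atg7, -0.0013 for Atg16l1, -0.059 for Tfeb and -0.064 for Mcoln1. The median of the 37 genes was then 0.0275, and none of the 37 had groups that did not overlap. The median was 0.102 with upper quartile scaling. Over all genes edgeR called 1 gene at an adjusted p under 0.1, 18 with no filter on low counts, and 1 each with the newer quasi-likelihood method and the robust prior, while DESeq2 called 152. No paired analysis was possible because the columns of the count table carry no replicate numbers.

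Leaving out 1 library at a time put 5.9% (without H12) to 16% (without H15) of all genes at an unadjusted p under 0.05. It put 1 to 9 of the 37 genes and 4 to 26 of the other pathway genes there. It called 0 to 2 of the 37 genes and 0 to 252 over all genes. It gave the 37 genes a median of 0.062 to 0.16, with 1 to 7 whose groups did not overlap, the highest counts being those without H15. It changed the sign of Ulk2 (-0.047 to 0.077), Pik3c3 (-0.033 to 0.10), Atg14 (-0.0059 to 0.26), Atg3 (-0.080 to 0.043), Map1lc3a (-0.024 to 0.24), Optn (-0.13 to 0.012), Tfeb (-0.099 to 0.098), Lamp2 (-0.039 to 0.028), Mcoln1 (-0.0043 to 0.053), Atp6v1h (-0.018 to 0.16), Ctsb (-0.097 to 0.033) and Hexa (-0.061 to 0.013). It moved by over 1.5 times, with no change of sign, Atg13 (0.13 without H75), Atg9a (-0.031 without H12), Wipi1 (0.094 without W32), Gabarap (0.054 without H75) and Ctsz (0.15 without W76), among others. The cause was not tested. With 4 livers per genotype, an adjusted p that misses the threshold does not show that levels are equal.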
